A study of Mus musculus with 135 samples.

Results

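This report covers the effect of Obox3 overexpression in mouse embryonic stem cells (mESCs) that lack the nuclear receptor gene Nr5a2 and in wild-type mESCs. The 8 libraries were taken by their labelled genotype and treatment, out of 135 samples in the series, and form 4 groups of 2 replicates. They are Nr5a2_KO cells overexpressing Obox3 (Nr5a2_KO Obox3OE), Nr5a2_KO cells overexpressing green fluorescent protein (Nr5a2_KO GFP), wild-type cells overexpressing Obox3 (Nr5a2_WT Obox3OE) and wild-type cells overexpressing GFP (Nr5a2_WT GFP). The libraries were made with the Smart-seq2 method, and the labels call the stem cells 2i ESCs. Their growth text describes a serum medium with LIF and a serum-free medium with LIF and inhibitors of MEK and GSK3, and does not say which these libraries had. The labels do not say how many clones of each genotype were used, how the genes were delivered, or whether replicates were separate cultures, so p-values measure only the spread between these libraries. For the same reason genotype and cell line cannot be told apart.

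Obox genes are a mouse family of homeobox genes with many copies, expressed mainly in oocytes and early embryos, where zygotic genome activation starts transcription from the embryo's own genome around the 2-cell stage. Nr5a2 is an orphan nuclear receptor that binds a DNA half-site as a monomer and is active in early embryos, in pluripotent cells and in liver. The design asks whether Obox3 changes the same genes when Nr5a2 is absent. Expression was measured as FPKM, a fragment count corrected for transcript length and library size. A gene was called changed when its limma adjusted p (Benjamini-Hochberg, over all 11765 genes tested) was under 0.05 and its change was at least 1 in log2(FPKM + 1); the added 1 makes changes of genes at low levels appear smaller than they are.

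Obox3 itself was listed at 2517 and 609.6 FPKM in the Nr5a2_KO Obox3OE libraries, against 0.0802 and 0.530 FPKM in the Nr5a2_KO GFP libraries. It was listed at 133 and 353 FPKM in the Nr5a2_WT Obox3OE libraries, against 0 and 0.130 FPKM in the Nr5a2_WT GFP libraries. The overexpressed gene was therefore high in all 4 labelled libraries and close to 0 in the controls, and its mean level was 6.43 times higher in Nr5a2_KO than in Nr5a2_WT Obox3OE libraries. The difference between its changes was 2.24 ± 0.97 (log2, SE), which did not pass the test (limma adjusted p = 0.758). Nr5a2 was listed at 0 in both Nr5a2_KO Obox3OE libraries and at 2.0e-06 and 0 FPKM in the Nr5a2_KO GFP libraries. In wild-type cells it was listed at 0.566 and 2.07 FPKM with Obox3 and at 1.66 and 2.95 FPKM with GFP, so its level matched the genotype labels and was low in wild-type cells. Nr5a2 was not called between Obox3OE and GFP in wild-type cells (−0.56 ± 0.37, limma adjusted p = 0.375).

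The summed FPKM per library ranged between 327694 and 486896, and the read depth is unknown. Replicate 1 of Nr5a2_WT Obox3OE stood apart, with 8594 genes at 1 FPKM or more against 9472 to 10468 in the other libraries and 28.7% of its FPKM in cytosolic ribosomal protein genes. Of 8 stem cell markers, which include Pou5f1 and Nanog, 7 reached 1 FPKM in every library. By contrast 9 of 10 fibroblast markers stayed under 1 FPKM in every library, 1 of these 9 being at 0 throughout. The summed primitive endoderm markers reached 8.10 to 9.77 FPKM in Nr5a2_KO Obox3OE libraries against 1.07 to 1.22 FPKM in Nr5a2_KO GFP libraries, and 3.29 to 6.67 FPKM in Nr5a2_WT Obox3OE libraries against 1.53 to 1.56 FPKM in Nr5a2_WT GFP libraries. Gata4, a transcription factor of that lineage, was the only one of these 6 markers called, in Nr5a2_KO cells, and 3 of the 6 stayed under 1 FPKM throughout. Summed trophectoderm markers were lower with Obox3, at 2.52 to 5.96 against 6.14 to 7.95 FPKM in Nr5a2_KO cells. In Nr5a2_WT cells they were at 3.05 to 3.81 against 5.035 to 10.38 FPKM, and none was called. Sums of neural and mesoderm markers overlapped between Obox3OE and GFP libraries in both genotypes. The part of such cells in the results was not tested, and in bulk samples more cells of a type and more RNA per cell cannot be told apart.

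More genes rose than fell with Obox3 in both genotypes, by a margin that in Nr5a2_WT cells depended on the fit. In Nr5a2_KO cells 387 genes rose (3.29% of those tested) and 32 fell (0.272%), or 419 in all (3.56%). In Nr5a2_WT cells 90 genes rose (0.765%) and 20 fell (0.17%), or 110 in all (0.935%). Of the 90 genes that rose in Nr5a2_WT cells, 67 also rose in Nr5a2_KO cells, which is 17.3% of the genes that rose in Nr5a2_KO cells and 74.4% of those that rose in Nr5a2_WT cells. These 67 genes included Guca1a, Trim43a, Pemt, Fmo1, Klf17 and Aqp9. The unequal counts do not show that the effects differ: the test of the difference itself (the Nr5a2_KO effect minus the Nr5a2_WT effect) called 12 genes (0.102%), none of them among the 67, and 620 genes had an unadjusted p under 0.05 for it. Of the 387 genes that rose in Nr5a2_KO cells, 342 had a change above 0 in Nr5a2_WT cells, and 88 of the 90 had one above 0 in Nr5a2_KO cells. Of all 11765 genes tested, 2399 had a change above 0 in Nr5a2_WT cells and 5973 in Nr5a2_KO cells.

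**Figure D1:**
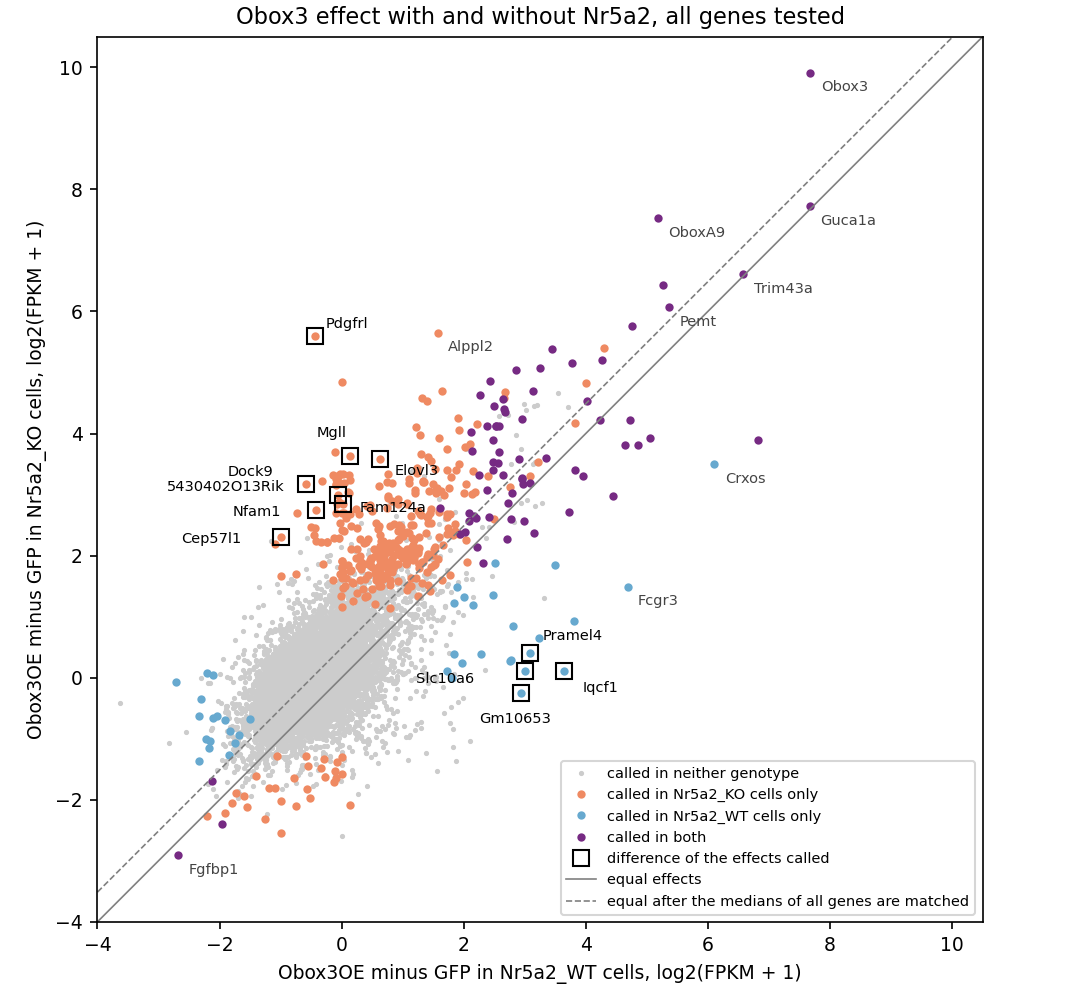
Each point is 1 of 11765 genes, with the Obox3OE minus GFP change in Nr5a2_KO cells on the vertical and that in Nr5a2_WT cells on the horizontal axis (log2(FPKM + 1)), coloured by where it was called; lines mark equal effects, before (solid) and after (dashed) matching the all-gene medians. The 67 genes that rose in both genotypes lie towards the upper right, and the 12 genes whose difference was called (squares) lie far from the lines.

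The scatter of the effects of all genes gives a Pearson correlation of 0.673 and a Spearman correlation of 0.544 across 11765 genes. These are descriptions across genes, which are not independent, and the effects share no control library. The median change over all genes was 0.01 in Nr5a2_KO cells, −0.48 in Nr5a2_WT cells and 0.52 for the difference, so list medians are also given relative to these values. With median-of-ratios scaling between libraries the share of called genes that rose was 83% in Nr5a2_KO cells in place of 92.4%, and 92.4% in Nr5a2_WT cells in place of 81.8%. With only the 8 libraries fitted it was 87.7% in Nr5a2_KO and 64.8% in Nr5a2_WT cells. Over all the alternatives it ranged between 78.4% and 99.4% in Nr5a2_KO cells and between 51% and 100% in Nr5a2_WT cells, so that in 1 of the fits rises and falls in Nr5a2_WT cells were about equal in number. The count in Nr5a2_KO cells, 419 either way, was 168 without Obox3OE replicate 2, 233 without GFP replicate 1 and 201 without GFP replicate 2. The count in Nr5a2_WT cells, 110 either way, was 173 and 26 without Obox3OE replicate 1 or 2, and 53 and 35 without GFP replicate 1 or 2.

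Most of the genes with the largest rises were shared by both genotypes. Guca1a, which encodes a guanylate cyclase activator of photoreceptors, had 399 and 761 FPKM in Nr5a2_KO Obox3OE libraries, against 0.887 and 2.59 FPKM in Nr5a2_KO GFP libraries. It had 185 and 838 FPKM in Nr5a2_WT Obox3OE libraries, against 1.21 and 0.684 FPKM in Nr5a2_WT GFP libraries. The groups did not overlap, and the rise was 7.73 ± 0.86 in Nr5a2_KO cells (limma adjusted p = 0.000582) and 7.68 ± 0.86 in Nr5a2_WT cells (limma adjusted p = 0.00212). The difference between these changes was 0.05, with a 95% confidence interval of −2.66 to 2.76. Without replicate 2 of Nr5a2_WT GFP the rise in Nr5a2_WT cells had a limma adjusted p of 0.0636.

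Trim43a, a member of a tripartite motif family expressed in preimplantation embryos, had 212 and 251 FPKM in Nr5a2_KO Obox3OE libraries, against 0.00563 and 4.62 FPKM in Nr5a2_KO GFP libraries. In wild-type cells it had 67.4 and 147 FPKM with Obox3, against 0 and 0.110 FPKM with GFP. It thus rose by a similar amount in both genotypes, 6.61 ± 0.65 in Nr5a2_KO cells (limma adjusted p = 3.7e-05) and 6.58 ± 0.65 in Nr5a2_WT cells (limma adjusted p = 9.44e-05), with a difference of 0.03 (95% confidence interval −1.94 to 2.00). Its near-identical neighbours Trim43b and Trim43c may share reads with it. Trim43b rose by 4.53 in Nr5a2_KO and 4.03 in Nr5a2_WT cells, whereas Trim43c rose by 3.67 in Nr5a2_KO cells and was not called in Nr5a2_WT cells (1.30).

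Pemt, the methyltransferase that makes phosphatidylcholine from phosphatidylethanolamine, had 326 and 574 FPKM in Nr5a2_KO Obox3OE libraries, against 5.53 and 5.34 FPKM in Nr5a2_KO GFP libraries. It had 107 and 220.3 FPKM in Nr5a2_WT Obox3OE libraries, against 2.31 and 3.24 FPKM in Nr5a2_WT GFP libraries. Pemt therefore rose by 6.08 ± 0.53 in Nr5a2_KO cells (limma adjusted p = 3.27e-06) and by 5.36 ± 0.53 in Nr5a2_WT cells (limma adjusted p = 4.09e-05). The flavin monooxygenase gene Fmo1 had 60.3 and 72.7 FPKM in Nr5a2_KO Obox3OE libraries, against 0 and 0.527 FPKM in Nr5a2_KO GFP libraries. It had 17.5 and 54.0 FPKM in Nr5a2_WT Obox3OE libraries, against 0.111 and 0.255 FPKM in Nr5a2_WT GFP libraries, and rose in both (5.77 and 4.75).

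Klf17, a Krüppel-like transcription factor of oocytes and early embryos, had 41.7 and 38.8 FPKM in Nr5a2_KO Obox3OE libraries, against 0.344 and 0 FPKM in Nr5a2_KO GFP libraries. In wild-type cells it had 7.87 and 24.2 FPKM with Obox3, against 0.0491 and 0.138 FPKM with GFP. It rose in both, and the difference of 1.38 (95% confidence interval −0.07 to 2.82) did not pass the test (limma adjusted p = 0.758). Aqp9, a channel for water and glycerol, had 19.8 and 20.1 FPKM in Nr5a2_KO Obox3OE libraries, against 0.178 and 0.0716 FPKM in Nr5a2_KO GFP libraries. It had 24.6 and 69.3 FPKM in Nr5a2_WT Obox3OE libraries, against 2.12 and 0.646 FPKM in Nr5a2_WT GFP libraries. Its rise was 4.22 ± 0.51 in Nr5a2_KO and 4.23 ± 0.51 in Nr5a2_WT cells, and Bex6 also rose in both (5.20 and 4.27). Of the 12 largest named rises in each genotype, 11 in Nr5a2_KO cells held without each library in turn, Lst1 being lost (limma adjusted p up to 0.237), and 7 in Nr5a2_WT cells, Guca1a, Crxos, Timd2, Bex6 and Trim43b being lost (up to 0.329).

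**Figure D2:**
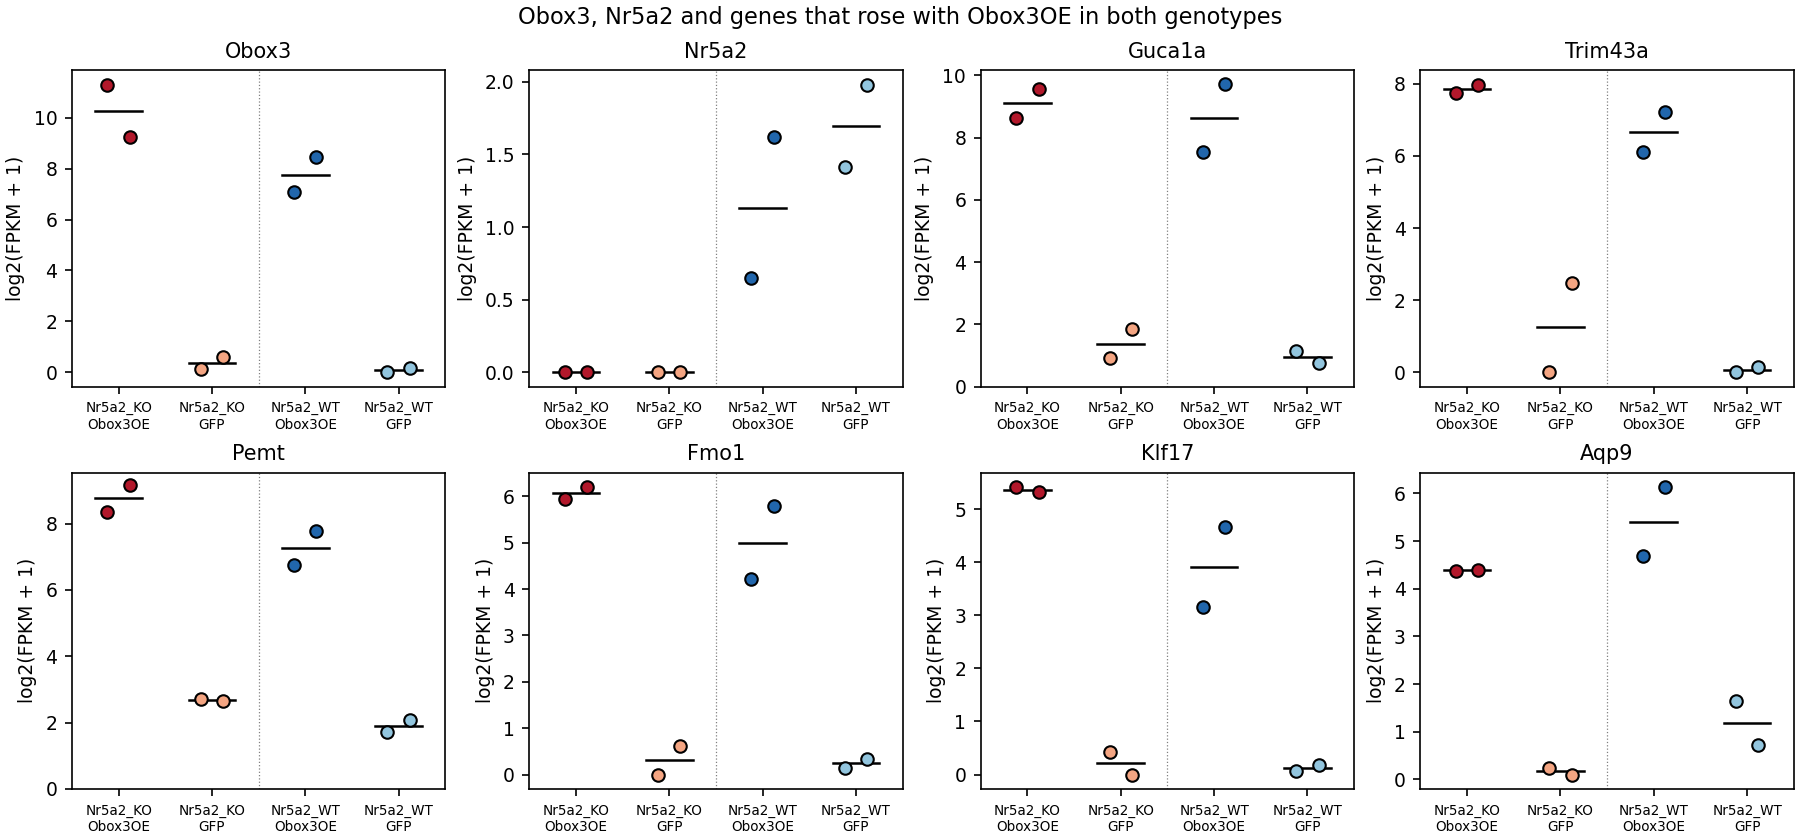
Levels (log2(FPKM + 1)) of Obox3, Nr5a2 and 6 genes that rose in both genotypes, with 1 point per library and a line at the mean of each group of 2. For Obox3 and the 6 genes every Obox3OE library lies above both GFP libraries of its genotype, and Nr5a2 lies at 0 in the 4 Nr5a2_KO libraries.

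The promoter windows of 4 of these shared genes and of 2 genes described below whose effects differed are printed here so that their letters can be compared. They come from RefSeq (GRCm38.p6, which differs from the mm9 build named in the submitters' processing notes), run from 250 bases before to 50 bases after the annotated start, and are written 5′ to 3′ on the gene's strand. Capitals mark matches to TAATCC, a motif of K50 homeodomains, to AAGGTCA and to the related AAGGCCA, half-site forms bound by Nr5a-type receptors, and to the reverse complement of each. The windows lie at chr17:47400557-47400856 (minus strand, Guca1a), chr9:88580641-88580940 (plus strand, Trim43a), chr11:60040139-60040438 (minus strand, Pemt), chr4:117765617-117765916 (minus strand, Klf17), chr6:88724162-88724461 (plus strand, Mgll) and chr4:144058875-144059174 (plus strand, Pramel4).
Guca1a: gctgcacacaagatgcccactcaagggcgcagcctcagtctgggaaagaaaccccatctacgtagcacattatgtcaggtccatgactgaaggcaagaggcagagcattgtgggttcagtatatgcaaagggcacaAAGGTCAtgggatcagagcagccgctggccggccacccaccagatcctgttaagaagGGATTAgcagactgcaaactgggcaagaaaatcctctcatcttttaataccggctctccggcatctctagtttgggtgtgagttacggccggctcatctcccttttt
Trim43a: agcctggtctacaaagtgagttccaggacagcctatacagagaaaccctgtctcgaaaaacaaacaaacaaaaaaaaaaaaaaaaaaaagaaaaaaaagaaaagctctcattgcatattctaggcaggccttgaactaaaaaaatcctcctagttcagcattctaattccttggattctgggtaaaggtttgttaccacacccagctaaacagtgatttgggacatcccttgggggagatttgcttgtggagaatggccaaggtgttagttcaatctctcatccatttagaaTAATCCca
Pemt: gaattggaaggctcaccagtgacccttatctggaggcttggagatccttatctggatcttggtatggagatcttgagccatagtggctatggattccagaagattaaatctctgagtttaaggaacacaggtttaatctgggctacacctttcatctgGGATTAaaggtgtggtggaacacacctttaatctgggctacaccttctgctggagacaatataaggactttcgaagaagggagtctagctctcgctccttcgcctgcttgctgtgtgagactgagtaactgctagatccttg
Klf17: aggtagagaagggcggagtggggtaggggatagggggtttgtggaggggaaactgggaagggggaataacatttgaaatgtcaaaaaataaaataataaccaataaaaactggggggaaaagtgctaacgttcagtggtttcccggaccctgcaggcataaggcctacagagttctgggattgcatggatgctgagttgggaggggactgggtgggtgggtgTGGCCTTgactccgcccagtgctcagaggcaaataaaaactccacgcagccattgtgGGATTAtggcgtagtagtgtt
Mgll: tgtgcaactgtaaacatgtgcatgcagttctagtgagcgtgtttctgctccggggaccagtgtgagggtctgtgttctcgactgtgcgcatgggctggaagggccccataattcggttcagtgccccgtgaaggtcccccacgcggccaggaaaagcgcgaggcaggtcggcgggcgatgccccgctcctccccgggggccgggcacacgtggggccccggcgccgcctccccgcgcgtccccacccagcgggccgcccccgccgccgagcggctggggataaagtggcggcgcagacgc
Pramel4: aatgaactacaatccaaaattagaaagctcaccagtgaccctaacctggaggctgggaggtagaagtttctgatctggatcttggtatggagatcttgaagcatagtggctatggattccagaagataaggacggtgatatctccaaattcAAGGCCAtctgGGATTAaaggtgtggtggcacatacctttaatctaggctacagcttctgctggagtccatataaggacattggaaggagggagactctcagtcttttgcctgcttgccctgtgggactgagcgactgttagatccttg
GGATTA lay 57 bases upstream of the start in Guca1a, 92 upstream in Pemt and 88 upstream in Pramel4. Downstream of the start, TAATCC began at base 43 in Trim43a and GGATTA at base 30 in Klf17. Of the half-site forms, AAGGTCA lay 114 bases upstream of the start in Guca1a, TGGCCTT 28 upstream in Klf17 and AAGGCCA 99 upstream in Pramel4, and Mgll's window held none of the 3 motifs. Pemt and Pramel4 shared an identical run of 27 bases. Of all 32851 windows in the RefSeq table, 7.06% held TAATCC, 4.72% AAGGTCA and 6.2% AAGGCCA on either strand. A count over the genes that rose is void, because a window was found for 255 of 387 genes in Nr5a2_KO cells and 61 of 90 in Nr5a2_WT cells, under 80%. For Pemt and Mgll, which have 2 windows each, the window with the most matches was printed, or the first by position if they tied. The windows printed are therefore no sample to set against the shares of all windows. A match is a description of letters, not a site.

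A separate set of mESC libraries in the same series, 4 with Obox3oe and 5 with GFP, gave a list of Obox3-raised genes that used none of the 8 libraries. In it 316 genes rose (2.82% of 11186 tested), of which 309 were not Obox genes and 305 were tested here. Of these 305 genes, 157 rose and none fell in Nr5a2_KO cells (51.5%, against 3.29% of all genes tested), and 76 rose and none fell in Nr5a2_WT cells (24.9%, against 0.765%). Without the 4 Obox3OE libraries 293 of the 305 would still have passed the filter on low values, and of these 154 rose in Nr5a2_KO and 73 in Nr5a2_WT cells. Libraries of the same table that overexpress Obox5 (Obox5OE) still counted in that check. Whether the genes would pass on the GFP libraries alone was not tested. The median change was 1.95 in Nr5a2_KO cells and 1.46 in Nr5a2_WT cells, and relative to the median of all genes it was 1.94 in both. Every one of the 305 lay above the all-gene median in Nr5a2_WT cells, and 291 of them did so in Nr5a2_KO cells.

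**Figure D3:**
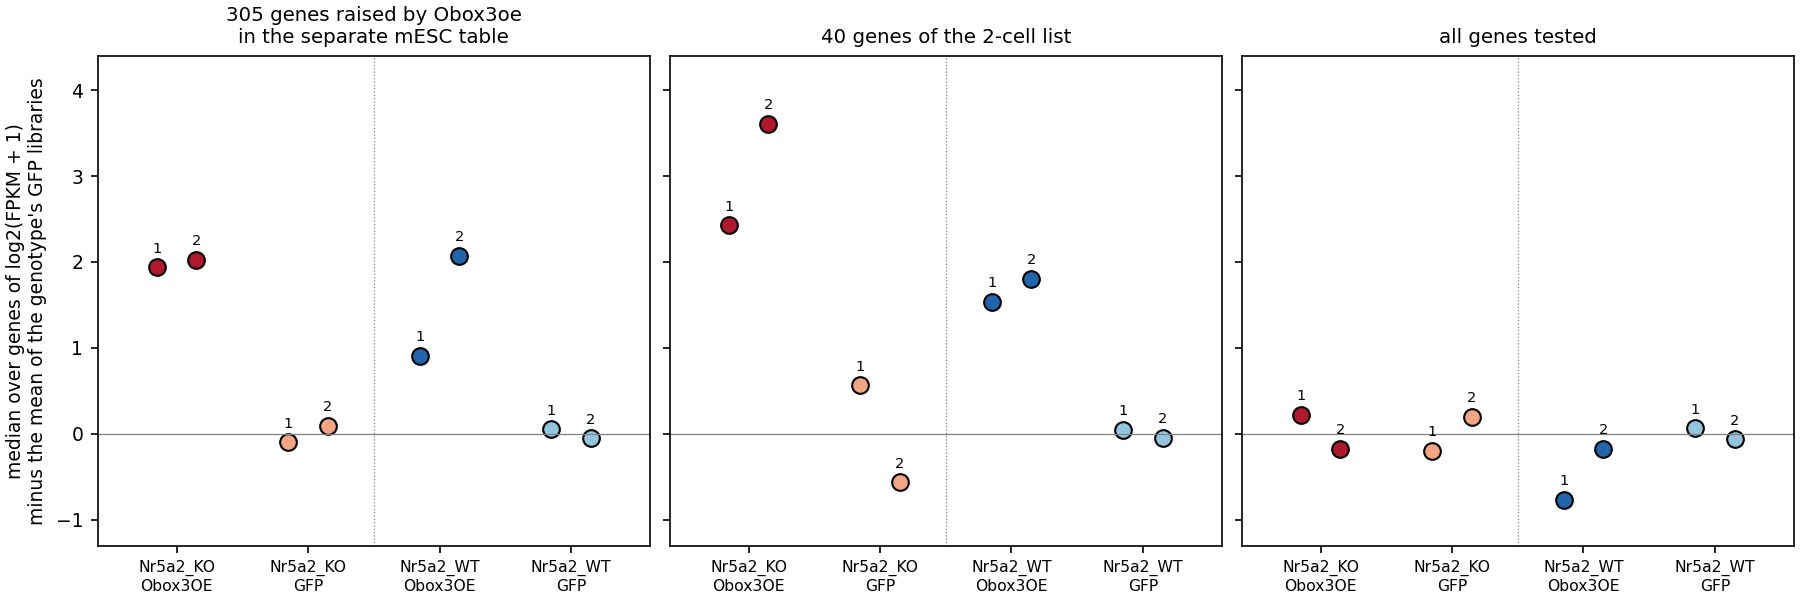
Median over the genes of a list of log2(FPKM + 1) minus the mean of the GFP libraries of the same genotype, with 1 point per library (replicate number above it), for the 305 genes raised in the separate libraries, the 40 genes of the 2-cell list and all genes tested. Replicate 1 of Nr5a2_WT Obox3OE lies low for the first list (0.908) and for all genes alike.

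By library, as the plot of list medians shows before that subtraction, the list's median change over the GFP mean, relative to all genes, was 1.72 and 2.2 in the Nr5a2_KO Obox3OE libraries and 1.68 and 2.25 in the Nr5a2_WT Obox3OE libraries. The spread between replicates of 1 group was thus larger than the gap between the genotypes. In Nr5a2_WT cells the library with more Obox3 (353 against 133 FPKM) had the higher of these medians. In Nr5a2_KO cells the library with more Obox3 (2517 against 609.6 FPKM) had the lower. The part of the Obox3 level in these medians was not tested. The test of the difference called 4 of the 305 genes, all with the larger effect in Nr5a2_WT cells. With only the 8 libraries fitted it called 5 of 294 with the larger effect in Nr5a2_KO and 11 with the larger effect in Nr5a2_WT cells, and without single libraries it called 0 to 2. The median difference was 0.46 against 0.52 over all genes, and 140 of the 305 (45.9%) lay above that all-gene median and 165 below it. The median difference was −0.06 without Nr5a2_WT Obox3OE replicate 1 and 1.03 without replicate 2 of that group, against 0.21 and 0.83 over all genes. The share above the all-gene median was between 38.1% and 57.8% without single libraries. For single genes the error was wide: the median half-width of the 95% confidence interval was 1.45, and 229 of the 305 intervals included 0. Intervals of 48 genes lay above 0 and those of 28 below it, yet 4 genes were called, because the intervals are not adjusted for the number of genes tested. With 2 libraries a group, a difference larger than a gene's own half-width could thus also go uncalled. The few calls do not show that differences were absent. Among the 11765 genes, 5.27% reached a limma p below 0.05 for the difference before adjustment, which matches an interval without 0. Intervals without 0 were thus more frequent in the list than over all genes. The quartiles of the difference were −0.22 and 1.11 in the list, against 0.19 and 0.83 over all genes. The reason for this wider spread was not tested.

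The counts within each genotype depended on single libraries. The count that rose in Nr5a2_KO cells was 92 without Obox3OE replicate 2 and 100 or 101 without GFP replicate 1 or 2. The count in Nr5a2_WT cells was 23 without Obox3OE replicate 2, 115 without Obox3OE replicate 1, and 40 or 28 without GFP replicate 1 or 2. Over these left-out libraries the median relative to all genes stayed between 1.73 and 2.22 in Nr5a2_KO cells and between 1.69 and 2.25 in Nr5a2_WT cells. With median-of-ratios scaling 171 rose in Nr5a2_KO and 158 in Nr5a2_WT cells.

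The size of the effect in the separate libraries carried over to both genotypes. Among the 102 genes most strongly raised there, 69 rose in Nr5a2_KO and 59 in Nr5a2_WT cells, with medians of 3.03 and 2.65. In the middle 101 genes, 57 and 13 rose, with medians of 1.99 and 1.34. In the weakest 102 genes, 31 and 4 rose, with medians of 1.40 and 1.11. Relative to all genes these medians were 3.02 and 3.13 in the strongest, 1.98 and 1.82 in the middle and 1.39 and 1.59 in the weakest genes. Across the 305 genes the change in the separate libraries correlated with that in Nr5a2_KO cells at r = 0.595 (rho 0.509) and in Nr5a2_WT cells at r = 0.791 (rho 0.638), a description across genes that share libraries.

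Genes of the 2-cell stage, a list of 60 genes whose transcripts mark 2-cell embryos and 2-cell-like cells, also rose. The expression table held 49 of them and 40 passed the filter on low values, so that members low in every library were not tested. In Nr5a2_KO cells 24 of the 40 rose (60%, against 3.29% of all genes tested), with a median of 3.11, or 3.10 relative to all genes. That relative median was 1.86 without Nr5a2_KO GFP replicate 2 and up to 3.79 without other single libraries. In Nr5a2_WT cells 9 rose (22.5%, against 0.765%), with a median of 1.78, which is 2.26 relative to all genes. Without the Obox3OE libraries, but with the Obox5OE libraries still counted, 35 of the 40 would have passed the filter. Of these, 23 rose in Nr5a2_KO and 9 in Nr5a2_WT cells. All 9 were among the 24, and the test of the difference called none of the 40, with a median difference of 1.25 against 0.52 over all genes.

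The members that rose most in Nr5a2_KO cells have varied roles. Sp110, a nuclear body protein, had 87.7 and 189 FPKM in Nr5a2_KO Obox3OE libraries, against 1.69 and 4.83 FPKM in Nr5a2_KO GFP libraries. It had 6.19 and 12.4 FPKM in Nr5a2_WT Obox3OE libraries, against 0.289 and 0.414 FPKM in Nr5a2_WT GFP libraries. Sp110 thus rose in both genotypes, by 5.03 ± 0.59 (limma adjusted p = 7.16e-05) and 2.86 ± 0.59 (limma adjusted p = 0.0229), and the difference of 2.17 had a 95% confidence interval of 0.41 to 3.92 and was not called over all genes. The membrane protein gene Tmem92 had 27.6 and 46.5 FPKM in Nr5a2_KO Obox3OE libraries, against 1.99 and 0.272 FPKM in Nr5a2_KO GFP libraries. It had 35.4 and 23.6 FPKM in Nr5a2_WT Obox3OE libraries, against 2.83 and 2.89 FPKM in Nr5a2_WT GFP libraries. Tmem92 rose in both (4.24 and 2.95), and so did Arg2, a mitochondrial arginase (3.69 and 2.58).

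Dux, the homeobox activator of the 2-cell programme, had 2.03 and 2.52 FPKM in Nr5a2_KO Obox3OE libraries, against 0.0472 and 0.231 FPKM in Nr5a2_KO GFP libraries. In wild-type cells it had 0.997 and 1.79 FPKM with Obox3, against 0.570 and 0.184 FPKM with GFP. It rose in Nr5a2_KO cells (1.52 ± 0.34, limma adjusted p = 0.0137) and was not called in Nr5a2_WT cells (0.79 ± 0.34, limma adjusted p = 0.238), with a difference of 0.73 (95% confidence interval −0.28 to 1.74). The deubiquitinase genes of the Usp17l family rose in Nr5a2_KO cells for 5 of 5 tested members and in Nr5a2_WT cells for 1 of 5, Usp17lb. All 3 Duxbl genes rose in Nr5a2_KO cells and none was called in Nr5a2_WT cells. Members of these families are near-identical copies whose reads may be split between them.

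**Figure D4:**
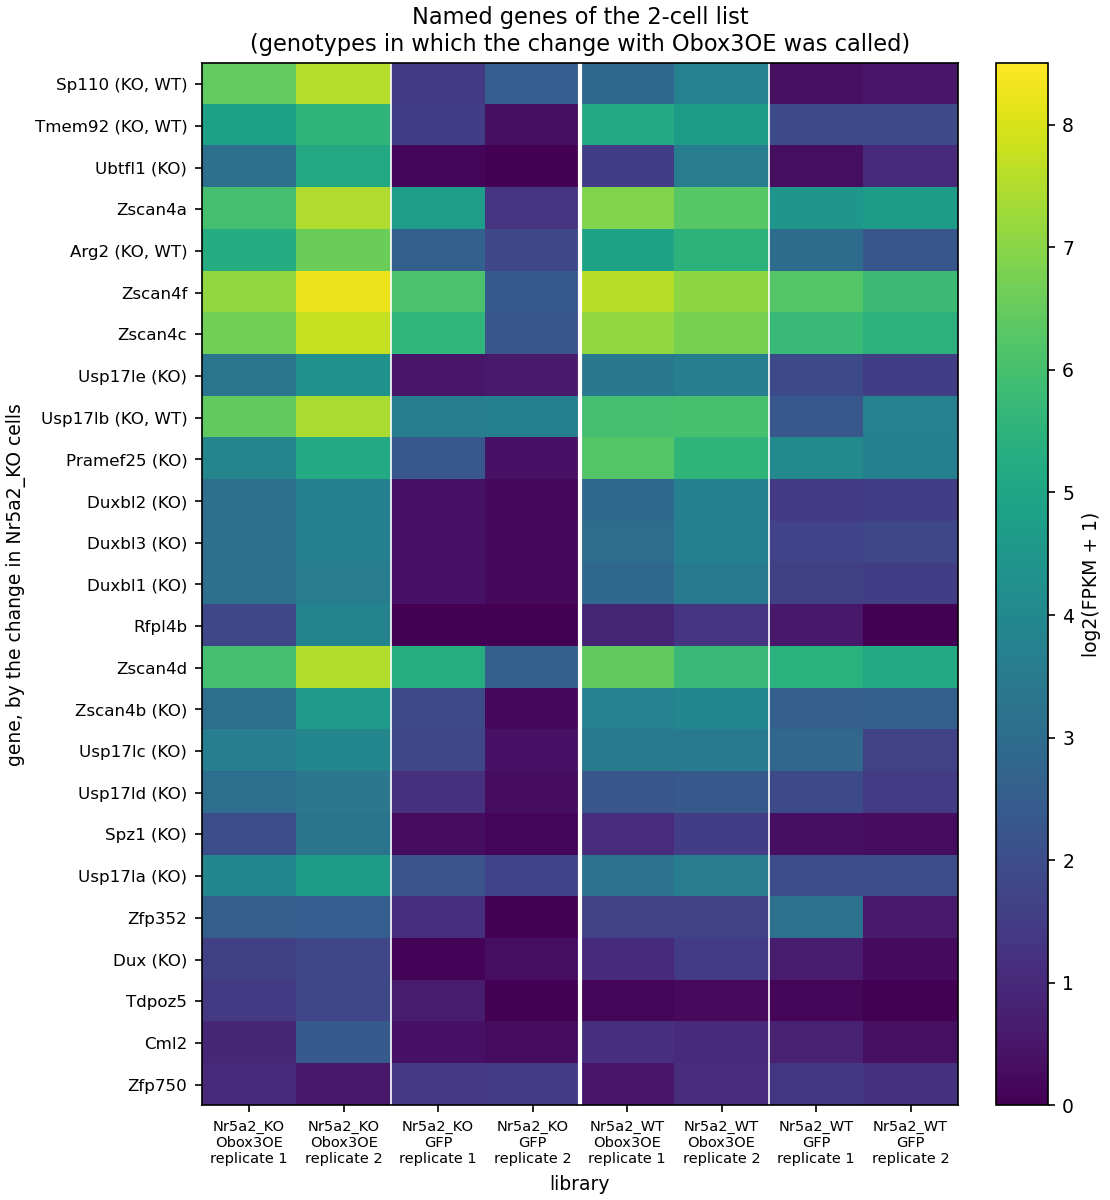
Heat map of log2(FPKM + 1) for the named genes of the 2-cell list (rows, ordered by their change in Nr5a2_KO cells, with the genotypes in which each was called) in the 8 libraries (columns). The Nr5a2_KO GFP replicates differ from each other for the Zscan4 genes.

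Zscan4c, of a family that marks 2-cell embryos and 2-cell-like cells, had 101 and 215 FPKM in Nr5a2_KO Obox3OE libraries, against 47.3 and 3.68 FPKM in Nr5a2_KO GFP libraries. It had 139.7 and 107 FPKM in Nr5a2_WT Obox3OE libraries, against 52.1 and 43.4 FPKM in Nr5a2_WT GFP libraries. The Obox3OE libraries were higher than their controls in every case, but neither change was called (3.31 ± 0.98 in Nr5a2_KO cells, limma adjusted p = 0.135, and 1.35 ± 0.98 in Nr5a2_WT cells, limma adjusted p = 0.425). The Nr5a2_KO GFP replicates also differed across the list: relative to all genes, its median was 0.763 in replicate 1 and −0.763 in replicate 2, against 2.21 and 3.79 in the Nr5a2_KO Obox3OE libraries. In wild-type cells it was 2.31 and 1.98 in the Obox3OE libraries.

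The counts of 2-cell genes turned on these libraries. Of 16 named members that rose in Nr5a2_KO cells, 8 held their call without each library in turn (Arg2, Duxbl1, Duxbl2, Duxbl3, Sp110, Tmem92, Ubtfl1 and Usp17le), and of 4 in Nr5a2_WT cells none did. In Nr5a2_KO cells 11 rose without Obox3OE replicate 2 and 13 without GFP replicate 2. In Nr5a2_WT cells none rose without Obox3OE replicate 2, 4 without Obox3OE replicate 1, and 1 or 2 without GFP replicate 1 or 2. The excess of the difference over all genes, 0.73, was −0.11 without Nr5a2_KO GFP replicate 2 and 0.01 without Nr5a2_KO Obox3OE replicate 2, but 1.23 without Nr5a2_KO GFP replicate 1 and 1.41 without Nr5a2_KO Obox3OE replicate 1. Without single Nr5a2_WT libraries it was between 0.35 and 0.99. With median-of-ratios scaling 16 rose in Nr5a2_KO and 12 in Nr5a2_WT cells.

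Other Obox genes were also higher in the Obox3OE libraries. Of 66 Obox genes listed, 40 were tested, of which 21 rose in Nr5a2_KO cells (52.5%, against 3.29% of all genes tested). In Nr5a2_WT cells 3 rose (7.5%, against 0.765%), namely Obox3, OboxA9 and OboxA10. None was called for the difference. A member that passed the filter on low values only through the Obox3OE libraries had to differ, and 4 of the 40 did so. Of the other 36, 20 rose in Nr5a2_KO and 2 in Nr5a2_WT cells. The Obox5OE libraries still counted for these 36, and whether they would pass on the GFP libraries alone was not tested. Their counts are therefore under the same limit. OboxA9 had 318 and 105 FPKM in Nr5a2_KO Obox3OE libraries, against 0 in both Nr5a2_KO GFP libraries. It had 19.5 and 67.2 FPKM in Nr5a2_WT Obox3OE libraries, against 0.0558 and 0 FPKM in Nr5a2_WT GFP libraries. Its levels followed those of Obox3 library by library, and reads of the overexpressed gene assigned to similar copies cannot be told apart from the copies' own transcripts.

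Of 30 pluripotency genes, 3 rose and none fell in Nr5a2_KO cells, and 1 rose and 1 fell in Nr5a2_WT cells. These are 10% and 3.33% that rose, against 3.29% and 0.765% of all genes tested, and with so few genes nothing is read from the list as a whole. Fbxo15, an F-box gene of undifferentiated stem cells, had 1202 and 1774 FPKM in Nr5a2_KO Obox3OE libraries, against 199 and 282 FPKM in Nr5a2_KO GFP libraries. It had 844 and 934 FPKM in Nr5a2_WT Obox3OE libraries, against 196 and 189 FPKM in Nr5a2_WT GFP libraries. It rose in both (2.62 ± 0.37, limma adjusted p = 0.000249, and 2.2 ± 0.37, limma adjusted p = 0.00407), while Pou5f1, Nanog, Sox2 and Esrrb were called in neither.

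Dppa2, which binds chromatin together with Dppa4 and activates Dux in mouse stem cells, had 307 and 224 FPKM in Nr5a2_KO Obox3OE libraries, against 21.0 and 35.6 FPKM in Nr5a2_KO GFP libraries. It had 226 and 295 FPKM in Nr5a2_WT Obox3OE libraries, against 147 and 68.0 FPKM in Nr5a2_WT GFP libraries. The Obox3OE levels overlapped between the genotypes, whereas the GFP levels were lower in Nr5a2_KO cells (−1.83, limma adjusted p = 0.0396). Dppa2 rose in Nr5a2_KO cells (3.21 ± 0.45, limma adjusted p = 0.000248) and was not called in Nr5a2_WT cells (1.36 ± 0.45, limma adjusted p = 0.166), with a difference of 1.86 (95% confidence interval 0.52 to 3.19) that was not called over all genes. Dppa4 also rose in Nr5a2_KO cells (1.67, limma adjusted p = 0.0326). With Fbxo15 these were the pluripotency genes that rose in Nr5a2_KO cells. Of 37 genes on a list named for repressors of 2-cell genes, 3 rose in Nr5a2_KO cells (8.11%, against 3.29% of all genes tested). None was called in Nr5a2_WT cells, where 0.765% of all genes rose. Dppa2 and Dppa4, counted above, were 2 of the 3, although they are known as activators and not as repressors of Dux. The other was Zfp809, which silences retroviral elements. With so few genes nothing is read from this list.

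Of 25 known target genes of Nr5a2 in other tissues and stem cells 9 were tested, and none was called in either genotype. These are too few to set against the 3.56% and 0.935% of all genes called, so nothing is read from the list. Their median changes were −0.29 in Nr5a2_KO and −0.77 in Nr5a2_WT cells, or −0.29 in both relative to all genes. Of 49 nuclear receptor genes 19 were tested, and Nr1h3, the oxysterol receptor LXRα, rose in Nr5a2_KO cells (1.51 ± 0.39, limma adjusted p = 0.035). Its change was 1.42 ± 0.39 in Nr5a2_WT cells (limma adjusted p = 0.101), with a difference of 0.09 (95% confidence interval −1.06 to 1.25). Of 13 primitive endoderm genes Gata4 rose in Nr5a2_KO cells (1.94 ± 0.44, limma adjusted p = 0.0157) and had a log2 difference of 1.58 ± 0.44 in Nr5a2_WT cells (limma adjusted p = 0.104). Of 17 trophectoderm genes none was called in Nr5a2_KO cells and Krt18, a keratin, rose in Nr5a2_WT cells (3.81, limma adjusted p = 0.0456), while with GFP it was higher in Nr5a2_KO than in Nr5a2_WT cells (3.62, limma adjusted p = 0.0369).

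In the remaining lists at most 2 members were called, which is too few to set against the 3.56% of all genes called in Nr5a2_KO cells. None of 86 cytosolic ribosomal protein genes was called in either genotype, although their median was 0.20 in Nr5a2_WT cells, 0.68 above all genes, and −0.04 in Nr5a2_KO cells. None was called among 35 cell cycle genes, 32 germ cell genes and 13 DNA methylation genes in either genotype. Of 25 p53 target genes only Perp was called, of 10 oocyte genes only Zp3, a zona pellucida protein, and of 25 stress genes Ppp1r15a and Cth. Otx2, a homeobox gene of primed cells and neural tissue, was the only one of 5 mesoderm and ectoderm genes called. These calls were all in Nr5a2_KO cells, where Perp and Otx2 fell and the others rose. None of 3 fibroblast genes was called.

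Fewer genes fell, and 3 fell in both genotypes. Fgfbp1, a secreted protein that binds fibroblast growth factors, had 0.856 and 0 FPKM in Nr5a2_KO Obox3OE libraries, against 8.89 and 9.48 FPKM in Nr5a2_KO GFP libraries. It had 4.25 and 1.07 FPKM in Nr5a2_WT Obox3OE libraries, against 20.3 and 20.0 FPKM in Nr5a2_WT GFP libraries. It fell by 2.90 in Nr5a2_KO cells (limma adjusted p = 0.00421) and by 2.68 in Nr5a2_WT cells (limma adjusted p = 0.0211), with an SE of 0.55 for each. Gjb5, a connexin, had 4.2 and 3.15 FPKM in Nr5a2_KO Obox3OE libraries, against 18.8 and 29.4 FPKM in Nr5a2_KO GFP libraries. It had 8.62 and 8.55 FPKM in Nr5a2_WT Obox3OE libraries, against 38.9 and 33.6 FPKM in Nr5a2_WT GFP libraries, and fell in both (−2.40 and −1.96). Klf10, a transcription factor induced by TGF-β, was the other (−1.69 and −2.12).

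In Nr5a2_KO cells the largest falls also included Hist3h2a, a histone H2A gene (−2.55), Tsc22d1, a leucine zipper gene (−2.22), Perp, a membrane protein of desmosomes (−2.05), and Cited2, a CBP and p300 binding protein (−1.93). Their changes in Nr5a2_WT cells were −0.99, −1.91, −1.80 and −1.60 and were not called, and the difference was called for none. In Nr5a2_WT cells the largest fall was that of Oxr1, a gene of oxidative stress resistance (−2.71 ± 0.50, limma adjusted p = 0.00969), with 1.04 and 1.12 FPKM in Obox3OE libraries against 10.5 and 15.1 FPKM in GFP libraries. Oxr1 stood at −0.08 ± 0.50 in Nr5a2_KO cells, and the difference of 2.64 did not pass the test (limma adjusted p = 0.381). Of the 12 named falls per genotype, only that of Gjb5 in Nr5a2_KO cells held in every refit with 1 library left out. For the others the highest limma adjusted p was 0.477 in Nr5a2_KO and 0.364 in Nr5a2_WT cells.

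The difference between the effects was called for few genes, 8 with a larger effect in Nr5a2_KO cells (0.068% of genes tested) and 4 with a larger effect in Nr5a2_WT cells (0.034%). Of the 8 libraries, only those of Nr5a2_KO Obox3OE reached 1 FPKM for Elovl3, Nfam1 and 5430402O13Rik. Only those of Nr5a2_WT Obox3OE did so for Iqcf1, Slc10a6 and Pramel4. A gene that passed the filter on low values only through such libraries had to differ. Whether the Obox5OE libraries let these genes pass was not tested. On the GFP libraries alone Pdgfrl, Dock9 and Cep57l1 would pass and the others would not. Pdgfrl, which encodes a PDGF receptor-like protein, had 155 and 262 FPKM in Nr5a2_KO Obox3OE libraries, against 3.26 and 3.14 FPKM in Nr5a2_KO GFP libraries. It had 8.0e-06 and 0.148 FPKM in Nr5a2_WT Obox3OE libraries, against 0.640 and 0.269 FPKM in Nr5a2_WT GFP libraries. It was thus high in the Nr5a2_KO Obox3OE libraries alone, rising by 5.59 ± 0.44 in Nr5a2_KO cells (limma adjusted p = 1.29e-06), with a difference of 6.02 (95% confidence interval 4.70 to 7.34, limma adjusted p = 0.000191). It was the only one of the 12 whose call held without each of the 8 libraries in turn.

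Mgll, the lipase that splits monoacylglycerols, had 34.8 and 27.4 FPKM in Nr5a2_KO Obox3OE libraries, against 0.954 and 2.35 FPKM in Nr5a2_KO GFP libraries. It had 0.107 and 0.0814 FPKM in Nr5a2_WT Obox3OE libraries and was listed at 0 in both Nr5a2_WT GFP libraries. The difference was 3.51 (95% confidence interval 2.33 to 4.69, limma adjusted p = 0.0196). Dock9, an exchange factor for the GTPase Cdc42, had 19.0 and 22.7 FPKM in Nr5a2_KO Obox3OE libraries, against 1.27 and 1.57 FPKM in Nr5a2_KO GFP libraries. It had 0.631 and 0.663 FPKM in Nr5a2_WT Obox3OE libraries, against 1.49 and 1.42 FPKM in Nr5a2_WT GFP libraries, and its difference was 3.75 (95% confidence interval 2.60 to 4.90, limma adjusted p = 0.0121). Both genes had no called change in Nr5a2_WT cells.

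Elovl3, a fatty acid elongase, had 10.1 and 12 FPKM in Nr5a2_KO Obox3OE libraries, against 0.00176 and 0 FPKM in Nr5a2_KO GFP libraries. It had 0.446 and 0.667 FPKM in Nr5a2_WT Obox3OE libraries and was listed at 0 in both Nr5a2_WT GFP libraries, so it was above its controls in both genotypes, with a difference of 2.95 (95% confidence interval 1.86 to 4.04, limma adjusted p = 0.0370). Cep57l1, related to a centrosomal protein, had 67.6 and 106 FPKM in Nr5a2_KO Obox3OE libraries, against 15.8 and 16.8 FPKM in Nr5a2_KO GFP libraries. It had 7.45 and 12.9 FPKM in Nr5a2_WT Obox3OE libraries, against 20.3 and 20.6 FPKM in Nr5a2_WT GFP libraries. The remaining genes of this kind were Nfam1, an immune receptor (3.16), Fam124a (2.82) and the predicted gene 5430402O13Rik (3.05), chosen after its values were seen, to complete the count.

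**Figure D5:**
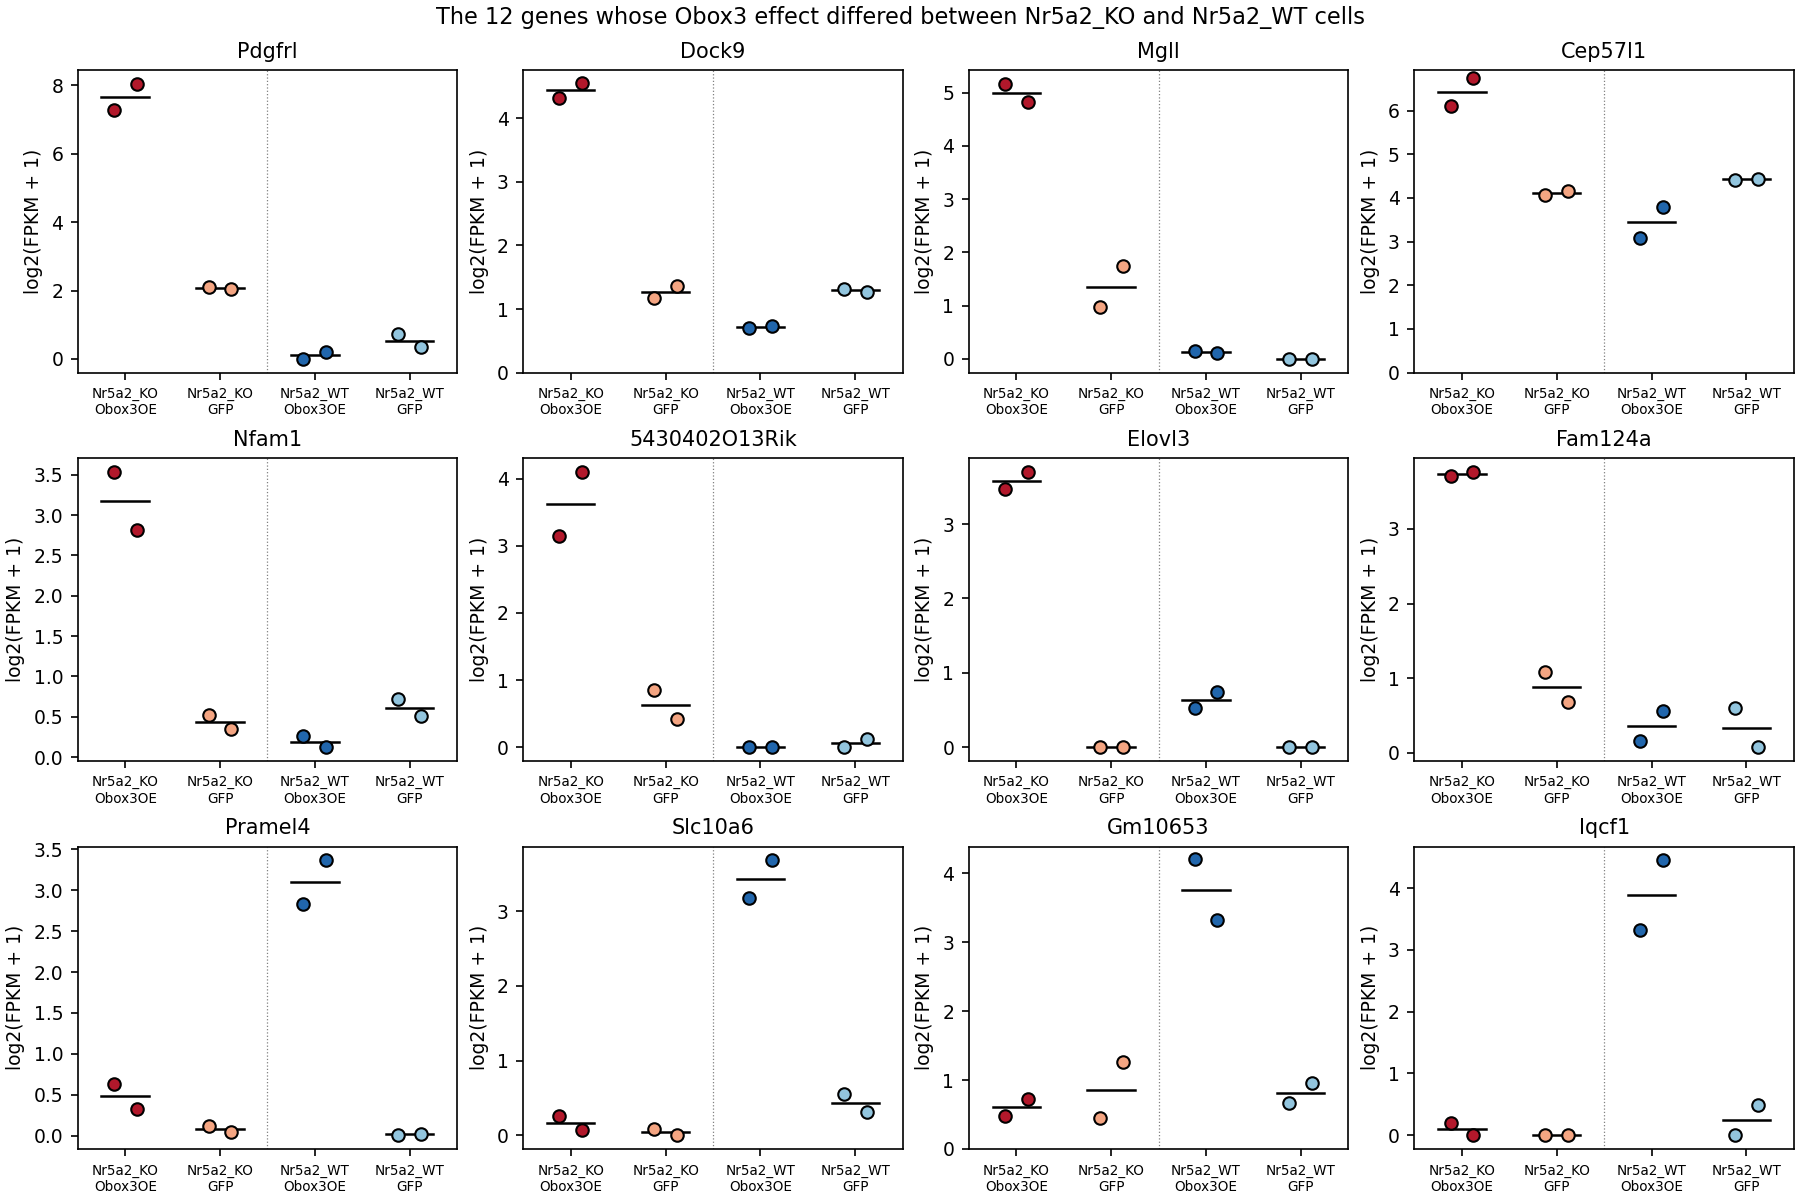
Levels (log2(FPKM + 1)) of the 12 genes whose Obox3 effect differed between Nr5a2_KO and Nr5a2_WT cells, with 1 point per library and a line at the mean of each group of 2. Pdgfrl, Dock9 and Mgll are high in the 2 Nr5a2_KO Obox3OE libraries, and Iqcf1, Pramel4 and Slc10a6 in the 2 Nr5a2_WT Obox3OE libraries.

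Of the genes with the larger effect in Nr5a2_WT cells, Iqcf1, an IQ motif gene of sperm, had 0.151 and 0 FPKM in Nr5a2_KO Obox3OE libraries and was listed at 0 in both Nr5a2_KO GFP libraries. It had 9 and 20.9 FPKM in Nr5a2_WT Obox3OE libraries, against 0 and 0.403 FPKM in Nr5a2_WT GFP libraries. The difference was −3.54 (95% confidence interval −4.73 to −2.35, limma adjusted p = 0.0196). Slc10a6, a transporter of sulfated steroids, had 0.190 and 0.0471 FPKM in Nr5a2_KO Obox3OE libraries, against 0.0634 and 0 FPKM in Nr5a2_KO GFP libraries. It had 8.08 and 11.8 FPKM in Nr5a2_WT Obox3OE libraries, against 0.467 and 0.243 FPKM in Nr5a2_WT GFP libraries, a difference of −2.89 (95% confidence interval −3.97 to −1.80, limma adjusted p = 0.0370).

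Pramel4, of the PRAME-like family expressed in germ cells and early embryos, had 0.555 and 0.259 FPKM in Nr5a2_KO Obox3OE libraries, against 0.0819 and 0.0302 FPKM in Nr5a2_KO GFP libraries. It had 6.13 and 9.30 FPKM in Nr5a2_WT Obox3OE libraries, against 0.00474 and 0.0172 FPKM in Nr5a2_WT GFP libraries, a difference of −2.68 (95% confidence interval −3.67 to −1.69, limma adjusted p = 0.0370). Its promoter window, printed above, held both GGATTA and AAGGCCA. The predicted gene Gm10653 was the other (−3.20), chosen after its values were seen, to complete the count. All 4 genes were thus low in Nr5a2_KO cells with or without Obox3.

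The separate mESC libraries, whose cells carry no Nr5a2 deletion in the labels, took no part in choosing these 12 genes. All 4 genes with the larger effect in Nr5a2_WT cells also rose there, by 2.45 for Iqcf1, 2.58 for Slc10a6, 1.85 for Pramel4 and 3.34 for Gm10653. Of the 8 with the larger effect in Nr5a2_KO cells none rose there. Dock9 (−0.42, limma adjusted p = 0.690) and Cep57l1 (−0.38, limma adjusted p = 0.901) were not called, and the other 6 did not pass the filter on low values, Elovl3 reaching at most 2.23 FPKM in an Obox3oe library. Thus the 4 genes behaved in those cells as in Nr5a2_WT cells, and 2 of the 8 could be tested there.

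Beside these, Fcgr3, an Fc receptor for immunoglobulin G, had 2.08 and 2.61 FPKM in Nr5a2_KO Obox3OE libraries, against 0 and 0.402 FPKM in Nr5a2_KO GFP libraries. It had 16.7 and 51.3 FPKM in Nr5a2_WT Obox3OE libraries, against 0.299 and 0.0737 FPKM in Nr5a2_WT GFP libraries. It rose in Nr5a2_WT cells (4.69 ± 0.48, limma adjusted p = 4.09e-05), and its difference of −3.19 was not called (limma adjusted p = 0.103), although it passed with median-of-ratios scaling (0.0395). Alppl2, an alkaline phosphatase of early embryos, had 66.8 and 50.9 FPKM in Nr5a2_KO Obox3OE libraries, against 0.164 and 0.198 FPKM in Nr5a2_KO GFP libraries. It had 0.828 and 4.21 FPKM in Nr5a2_WT Obox3OE libraries, against 0 and 0.0681 FPKM in Nr5a2_WT GFP libraries. Its difference of 4.07 (95% confidence interval 2.15 to 5.99) was larger than most of those called but did not pass the test (limma adjusted p = 0.171).

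The 12 calls were few and turned on single libraries and on scaling. The count was 4 without Nr5a2_KO Obox3OE replicate 2, 1 and 3 without Nr5a2_KO GFP replicate 1 or 2, 2 and 1 without Nr5a2_WT Obox3OE replicate 1 or 2, and 1 without either Nr5a2_WT GFP library. With median-of-ratios scaling 4 genes had the larger effect in Nr5a2_KO and 6 in Nr5a2_WT cells, against 8 and 4 here.

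Levels were also compared between genotypes within each treatment. With Obox3, 198 genes were higher in Nr5a2_KO than in Nr5a2_WT cells (1.68%) and 74 lower (0.629%). With GFP, 97 were higher in Nr5a2_KO than in Nr5a2_WT cells (0.824%) and 143 lower (1.22%), or 240 in all (2.04%). Genes higher in both treatments numbered 49, which is 24.7% of those within Obox3OE and 50.5% of those within GFP, and genes lower in both numbered 39 (52.7% and 27.3%). Of the genes called within Obox3OE 72.8% were higher in Nr5a2_KO cells, against 54.8% with median-of-ratios scaling and 43.3% without Nr5a2_WT Obox3OE replicate 1. The count of 272 was 161 without Nr5a2_KO Obox3OE replicate 1 and 97 without Nr5a2_WT Obox3OE replicate 1.

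Crxos, a homeobox gene that overlaps Crx on the other strand, showed such a baseline difference. It had 722 and 1380.2 FPKM in Nr5a2_KO Obox3OE libraries, against 71.2 and 107 FPKM in Nr5a2_KO GFP libraries. It had 25.0 and 211 FPKM in Nr5a2_WT Obox3OE libraries, against 0.101 and 0.0578 FPKM in Nr5a2_WT GFP libraries. With GFP it was thus higher in Nr5a2_KO cells (6.35, limma adjusted p = 0.0192), and with Obox3 it was higher than its control in both genotypes, a rise called in Nr5a2_WT cells (6.10 ± 1.05, limma adjusted p = 0.0368) and not in Nr5a2_KO cells (3.50 ± 1.05, limma adjusted p = 0.149). The Nr5a2_WT call held only without Nr5a2_KO GFP replicate 2 or Nr5a2_WT Obox3OE replicate 1, and without each of the other 6 libraries the limma adjusted p was up to 0.329. The counting is not stated to use strand, so reads of Crx and Crxos cannot be told apart. Of the 387 genes that rose with Obox3 in Nr5a2_KO cells, 7 were lower and none higher in Nr5a2_KO than in Nr5a2_WT cells with GFP.

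Genes that depend on Obox in the embryo were compared last. In late 2-cell embryos with maternal and zygotic loss of Obox (mzKO), 1502 genes were lower than in wild-type embryos (10.7% of 13989 tested) and 663 higher (4.74%). Of 1333 non-Obox genes lower in mzKO embryos and tested here, 109 rose and 1 fell with Obox3 in Nr5a2_KO cells (8.18% rose, against 3.29% of all genes), and 29 rose and none fell in Nr5a2_WT cells (2.18%, against 0.765% of all genes). Of these, 21 rose in both. The difference was called for 2, Iqcf1 and Pramel4, both with the larger effect in Nr5a2_WT cells. Of 386 genes higher in mzKO embryos, 12 rose (3.11%) and 3 fell in Nr5a2_KO cells, and 3 rose (0.777%) and 3 fell in Nr5a2_WT cells. Of all genes tested 0.272% fell in Nr5a2_KO and 0.17% in Nr5a2_WT cells, and with 3 falls per genotype nothing is read from them. The share that rose was thus above the share of all genes among genes lower in mzKO embryos and close to it among those higher in them, in both genotypes. How many genes of these lists passed the filter on low values only through the Obox3OE libraries was not counted. Over all genes tested 333 of 11765 did, and such a gene had to differ. These shares are under that limit.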

How the data were processed

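The 8 libraries compared, with 4 Obox5OE libraries in the same table, were grouped by their labelled genotype and treatment. The authors deposited FPKM values per gene. Per the submitters' processing notes, the tools named for the series include Trim Galore 0.6.6, HISAT2 2.2.1 and StringTie 2.1.2, with the mm9 build, and the notes used here do not give their settings. Whole reads could not be recovered from these FPKM values, so depth is unknown and no count test was used. Of 24143 gene names, 27 that had been turned into dates were left out.

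FPKM + 1 was log2-transformed, and genes with at least 1 FPKM in at least 2 of the 12 libraries were tested with limma 3.58.1 (R 4.3.3), with trend and robust moderation, 1 coefficient for each of 6 groups and 6 residual degrees of freedom. The script was checked on simulated data. The separate mESC table and the late 2-cell embryo table were fitted the same way, each within itself.

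The genes compared and the gene lists were chosen with earlier results of these data known. Named genes were Obox3, Nr5a2, named 2-cell genes, for each effect the 12 largest called changes each way among genes averaging at least 5 FPKM in the higher group, with non-overlapping libraries and names that are not predicted, the like for the difference, and called list members. Promoter windows were matched by symbol or RefSeq synonym. In all, 16 alternative settings were planned and 2 were added after seeing the data. A gene that met these rules was left out, and its result is not reported here.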

Additional observations from a re-analysis of the deposited data

Results flagged for a closer look

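The effect of Obox3 differed between Nr5a2_KO and Nr5a2_WT cells for 10 named genes, because the limma test of the difference itself passed its threshold. The difference, Nr5a2_KO effect minus Nr5a2_WT effect on the log2(FPKM + 1) scale, was 6.02 for Pdgfrl, 3.75 for Dock9, 3.51 for Mgll, 3.29 for Cep57l1, 3.16 for Nfam1, 2.95 for Elovl3 and 2.82 for Fam124a. It was −3.54 for Iqcf1, −2.89 for Slc10a6 and −2.68 for Pramel4. Of these genes only Pdgfrl, Dock9 and Cep57l1 would pass the filter on low values on the GFP libraries alone. Without single libraries the call held throughout for Pdgfrl alone, and the highest limma adjusted p was 0.313 among the genes with the larger effect in Nr5a2_KO cells and 0.189 among the others. Obox3 itself averaged 6.43 times more FPKM in the Nr5a2_KO than in the Nr5a2_WT Obox3OE libraries, and the part of this level in the differences was not tested.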

How the results depend on the processing

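Of 2494 gene results over the settings, 2124 stayed on their side of the threshold, 314 lost and 56 gained a call. In 12 the sign differed from that reported, none of them called in either setting. The count in Nr5a2_KO cells, 419, was 177 with no filter on low values and 168 to 488 with 1 library left out. The count in Nr5a2_WT cells, 110, was 25 with no filter, 288 with median-of-ratios scaling, 304 with only the 8 libraries fitted, 26 to 173 with 1 left out, and 202 with that scaling and without Nr5a2_WT Obox3OE replicate 1, a setting added after seeing the data. The count for the difference, 12, was 2 with an added constant of 0.1, with no filter or with a filter at 5 FPKM, 79 with the 8 libraries, 3 without trend and robust moderation, and 1 to 12 with 1 left out. Between genotypes within Obox3OE, 272 became 118 with no filter, 485 with the 8 libraries, 130 with the added setting, and 97 to 297 with 1 left out. The median of the separate-table list in Nr5a2_KO cells, 1.95, was 2.67 with the constant of 0.1 and 2.36 with the filter at 5 FPKM. That of the 2-cell list in Nr5a2_WT cells, 1.78, was 2.15 and 2.3 under those settings, 1.57 with no filter, 2.23 with scaling, 1.88 without Rn45s, 1.97 with the added setting, 1.99 without ribosomal protein genes (added after seeing the data), and 1.54 to 1.80 with 1 left out. The cause was not tested.

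A replicate block gave 731 calls in Nr5a2_KO cells, of which 85.5% rose, 410 in Nr5a2_WT cells, of which 51% rose, in place of 81.8%, 54 for the difference and 587 within Obox3OE. Of the separate-table list, it called 5 genes with the larger effect in Nr5a2_KO and 9 with the larger effect in Nr5a2_WT cells. The labels do not say that a replicate number pairs libraries, and each comparison holds 2 such pairs. Libraries of the same number deviated together with correlations of 0.143 to 0.329 across genes between the 4 groups. Between all 6 groups fitted, the range over 15 pairs of groups was 0.105 to 0.507.

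With unknown depth, values under 1 FPKM are imprecise, and 2 libraries a group leave wide intervals.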
